A study of Cavia porcellus with 12 samples.

Results

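Hepatic expression of 10 genes of triglyceride storage and the lipid droplet was compared between guinea pigs with NASH and controls. The genes were *PLIN2*, *PLIN3*, *CIDEC*, *CIDEB*, *DGAT1*, *DGAT2*, *PNPLA2*, *PNPLA3*, *LIPE* and *MGLL*, and all 10 were found among the 11896 human orthologue symbols for which regularised log (rlog) values were deposited. Liver RNA came from 12 female Dunkin Hartley guinea pigs of the same starting age, 6 of them fed chow and classed as healthy (controls) and 6 fed a high-fat diet that also held sucrose and cholesterol and classed as NASH, all for 25 weeks. The animals with NASH had been picked for bridging fibrosis and the controls at random among animals without NASH, so milder disease was not represented. The livers had not been perfused, and pieces of the left lateral lobe were used, so every value is that of a mixture of liver cells and blood. Each animal keeps the number of its label, and the controls were 5, 10, 31, 32, 45 and 56, the guinea pigs with NASH 2, 9, 11, 20, 41 and 65.

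Hepatocytes store surplus fatty acids as triglyceride in lipid droplets, which bud from the endoplasmic reticulum and are coated by proteins of the perilipin family. The DGAT enzymes add the last fatty acid to diacylglycerol, CIDE proteins let droplets exchange and merge their lipid, and a series of lipases takes the fatty acids off again, with PNPLA2 (adipose triglyceride lipase) acting on triglyceride, LIPE (hormone-sensitive lipase) mainly on diacylglycerol and MGLL on monoacylglycerol. Accumulation of such droplets in hepatocytes is steatosis, one of the lesions by which NASH is recognised.

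Controls had totals of 16980274 to 28636467 counts and animals with NASH 23704607 to 33091460. Levels are given in CPM, the count of a gene relative to a library size scaled by the TMM method of edgeR (factors of 0.804 to 0.875 for controls, 1.116 to 1.241 for NASH). CPM is not corrected for gene length, so levels are compared between animals and not between genes. A gene was called higher or lower when its Benjamini-Hochberg adjusted p-value from edgeR's quasi-likelihood test over all 11896 genes was under 0.05. With library size alone in place of TMM, the log2 fold changes moved up together, their median over all genes going from 0 to 0.48, so the small changes of the 10 genes are given under both scalings. Of the marker lists for liver cell types, the hepatocyte list fell in 7 of the 8 genes found (median log2 fold change −0.73) and its summed level was 108000 to 136000 CPM in controls and 43800 to 71000 CPM in NASH. Its smallest change, in *ASGR1* (−0.18), was 0.29 with library size alone (adjusted p = 0.00266 from edgeR). The stellate cell list rose in 7 of 9 genes (median 1.20, summed level 698 to 840 CPM in controls and 1480 to 2950 CPM in NASH). It did not rise throughout, as *LRAT* was lower without overlap (log2 fold change −0.57, adjusted p = 0.00082 from edgeR) and 1 gene was not called. The cholangiocyte list rose in 5 of 5 genes (median 3.09, 73.2 to 115 CPM and 302 to 539 CPM), and the erythroid list, of which *HBA1* and *HBA2* are a single count row that enters its sum under both symbols, rose in all 4 of its count rows (log2 fold changes from 3.47 to 6.38, summed level 115 to 340 CPM and 835 to 8840 CPM). For comparison with the counts of these lists, 27.9% of all 11896 genes were called higher and 26.0% lower. In these bulk samples, fewer cells of a type and less RNA per cell cannot be told apart.

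Of the 10 genes, *PLIN2* was higher in NASH, *CIDEC*, *CIDEB*, *DGAT2*, *LIPE* and *MGLL* were lower, and *PLIN3*, *DGAT1*, *PNPLA2* and *PNPLA3* did not pass the threshold. By the same test 27.9% of all genes were higher and 26.0% lower, 53.9% in all, so 6 called of 10 is a share near that of the whole liver transcriptome. The CPM of the groups did not overlap in 4 of the 10, *PLIN2* on the high side and *DGAT2*, *LIPE* and *MGLL* on the low side, where 33.7% of all genes were without overlap, 18.4% higher and 15.3% lower. The median log2 fold change of the 10 was −0.42, against 0 over all genes. On library size alone, 2 of the 10 were higher and 3 lower, where 63.9% and 7.66% of all genes were. There were also 2 higher and 3 lower with upper-quartile factors (31.9% and 21.6% of all genes) and when every row of at least 1 count was kept (30.3% and 18.8%). At a threshold of 0.01 there were 1 and 3 (21.5% and 19.1%), and in a test for a change beyond 1 on the log2 scale 1 and 0 (7.17% and 2.08%). So the droplet coat gene *PLIN2* was higher while *DGAT2*, of triglyceride completion, and *LIPE* and *MGLL*, of the later lipolytic steps, were lower.

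**Figure D1:**
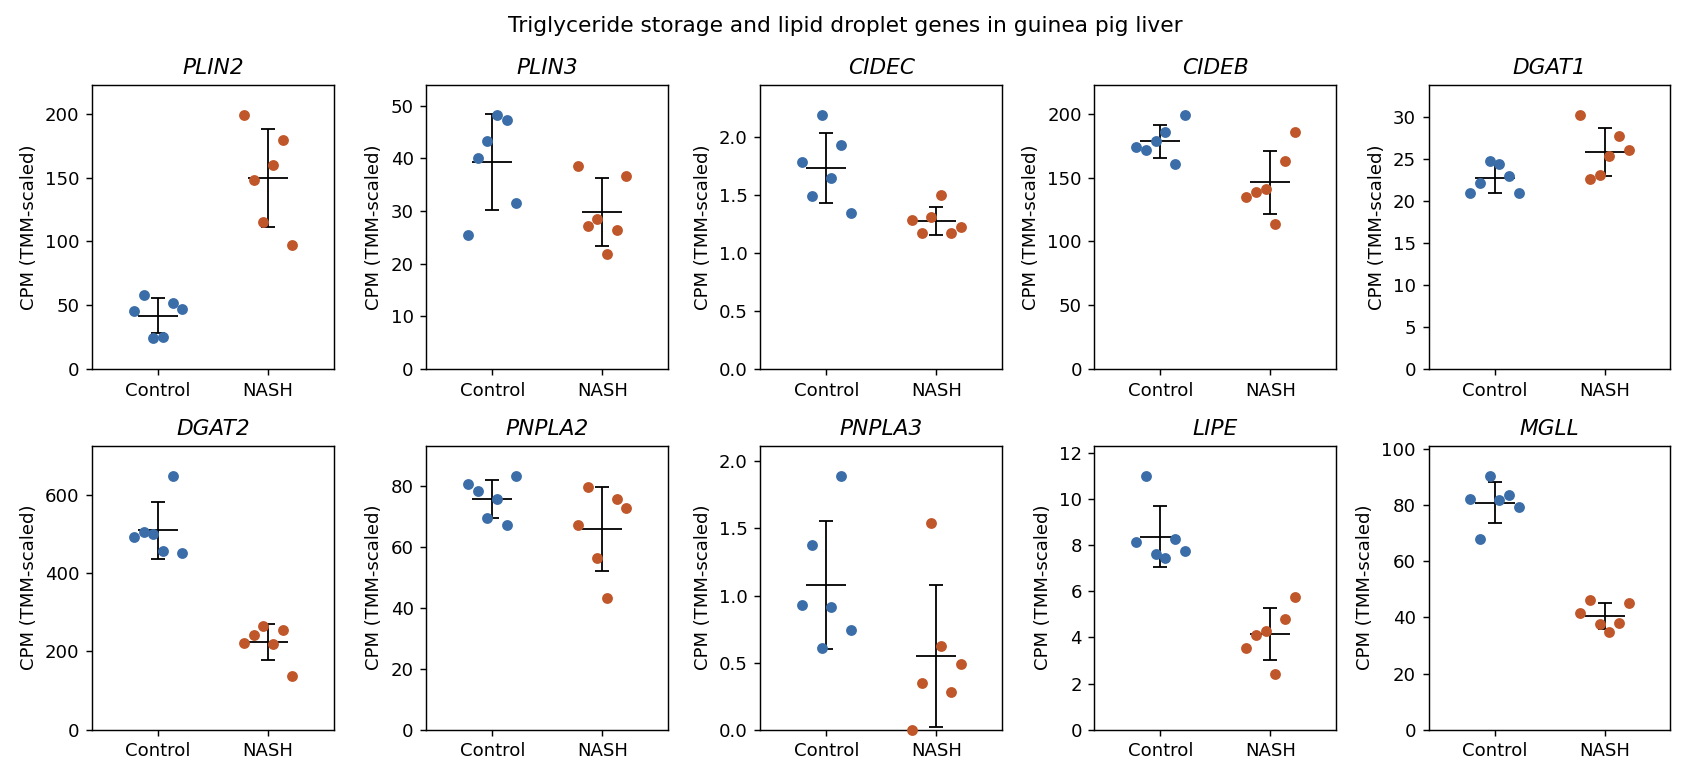
Level of each gene in CPM (vertical axes from 0) in the 6 controls (blue) and 6 guinea pigs with NASH (orange), a point for each animal, with the mean and SD as bars. The groups are apart for *PLIN2*, *DGAT2*, *LIPE* and *MGLL*, and *PLIN2* alone is higher in every animal with NASH, at 97.4 CPM or above against 58.1 CPM or below.

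*PLIN2* encodes perilipin 2, the perilipin that coats most droplets in hepatocytes and whose protein is degraded when it is not bound to lipid. Its level in controls was 24 CPM at the lowest, 46 at the median and 58.1 at the highest. In NASH the lowest, median and highest values were 97.4, 154 and 199 CPM. No control reached the lowest animal with NASH. Animals 65 and 11 were lowest and 2 and 41 highest in NASH, and among controls animals 31 and 32, at 24 and 25.4 CPM, stood below the other 4, which lay between 45.3 and 58.1 CPM. Means ± SD were 41.8 ± 14 CPM and 150 ± 38.6 CPM (n = 6 each), so *PLIN2* rose 3.59-fold (log2 1.84 with SE 0.25, edgeR adjusted p = 5.08e-05). *PLIN2* rested on between 515 and 7076 counts in an animal, so that counting error, a coefficient of variation (CV) of 3.54% in controls and 1.43% in NASH, was small beside the 33.5% and 25.7% found between animals. Only 5.78% of all genes had a higher log2 fold change. *PLIN2* was also the only gene of the 10 to pass when edgeR tested for a change beyond 1 on the log2 scale (adjusted p = 0.00664).

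*PLIN2* is made by macrophages and stellate cells as well as by hepatocytes. Of the macrophage marker list, 10 of 12 genes were found, of which 3 (*CD68*, *GPNMB* and *TREM2*) were higher, 1 (*MARCO*) was lower and 6 did not pass the threshold. Of all genes, 27.9% were higher and 26.0% lower. The summed level was 464 to 919 CPM in controls and 1120 to 1470 CPM in NASH. That sum includes *GPNMB*, at 14.1 to 69.8 CPM in controls and 432 to 579 CPM in NASH, so it does not show a rise of the list as a whole. *TREM2* had no count in any control but 32 (0.413 CPM) and at 9.08 to 19.3 CPM in NASH. Of the adipocyte marker list, *FABP4* was higher and *CIDEA* lower, the defining genes *ADIPOQ*, *LEP*, *PLIN1* and *PLIN4* were not analysed here, and the summed level of the genes found, 21.3 to 47.5 CPM in controls and 19.8 to 42.3 CPM in NASH, overlapped. The part of these cell types in the *PLIN2* result was not tested.

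*PLIN3* encodes a perilipin that moves between the cytosol and small, young droplets. Its level was 25.4 CPM at the lowest, 41.7 at the median and 48.2 at the highest in controls, and 21.8, 27.8 and 38.5 CPM in NASH. The groups overlapped, because controls 5 and 56 were low and animals 2 and 65 high for NASH. *PLIN3* had a log2 fold change of −0.40 with SE 0.18 (edgeR adjusted p = 0.0713). It was past the threshold without control 5 (−0.50, adjusted p = 0.0183 from edgeR), without animal 2 (−0.49, adjusted p = 0.0335) or without animal 65 (−0.47, adjusted p = 0.042), and with library size alone it was 0.07.

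A ratio of 2 genes within an animal does not depend on the scaling between libraries, so 6 ratios of counts were compared by a two-sided exact permutation test, whose smallest p-value for 6 animals against 6 is 0.00216. For *PLIN2* over *PLIN3* the ratio of counts ran from 0.527 to 1.78 among controls and from 2.65 to 7.35 in NASH. The mean log2 ratio rose from 0.05 ± 0.76 to 2.32 ± 0.54 (SD, n = 6 each), a difference of 2.27 or 4.82-fold (exact permutation p = 0.00216, 0.00432 adjusted over the 6 ratios). The balance of the perilipin transcripts thus differed in every animal with NASH from that in every control, with animal 65 nearest to the controls.

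**Figure D2:**
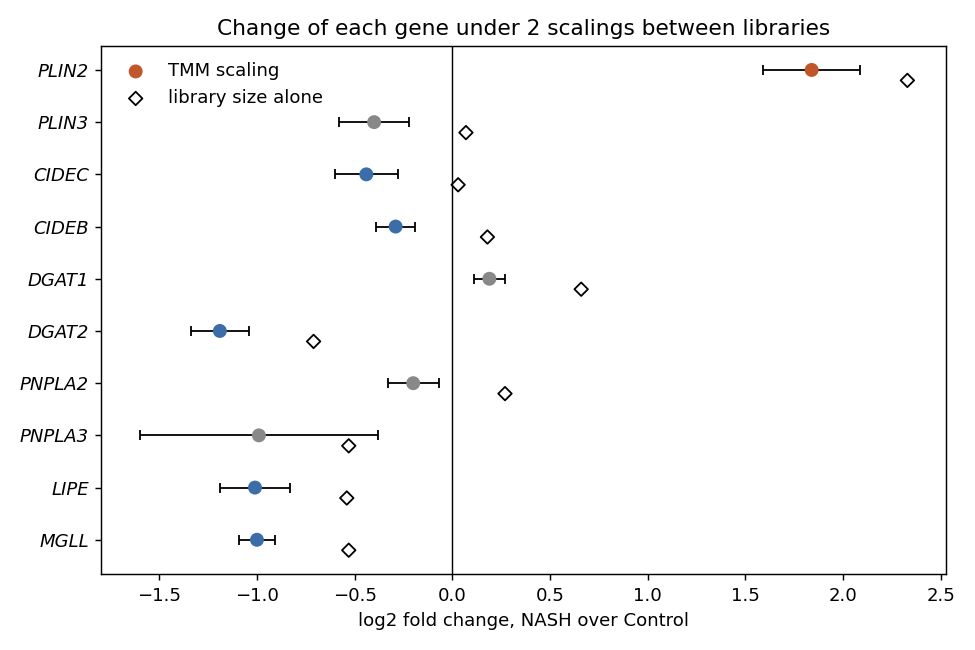
Log2 fold change of each gene, NASH over controls, with its standard error (circles, TMM scaling, orange for higher, blue for lower and grey for not called), and the same value with library size alone (open diamonds). *PLIN2* and *DGAT1* stay above and *DGAT2*, *LIPE*, *MGLL* and *PNPLA3* stay below 0 under both scalings, whereas *PLIN3*, *CIDEC*, *CIDEB* and *PNPLA2* lie on opposite sides of 0.

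*DGAT1* and *DGAT2* encode unrelated enzymes for the same last step of triglyceride synthesis, DGAT2 being tied mainly to fatty acids newly made in the liver and DGAT1 more to those taken up or recycled. *DGAT2* was at 452 CPM at the lowest, 496 at the median and 648 at the highest in controls. In NASH the corresponding values were 137, 232 and 265 CPM. No animal with NASH reached the lowest control, and the extremes were set by control 45, at 648 CPM, and animal 65, at 137 CPM. The mean fell from 509 ± 71.7 to 223 ± 46.3 CPM (SD, n = 6 each), which on the log2 scale was −1.19 (SE 0.15, edgeR adjusted p = 2.56e-05), and with library size alone −0.71 (adjusted p = 0.0011 from edgeR).

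*DGAT1* did not follow. Its level was 20.9 CPM at the lowest, 22.5 at the median and 24.8 at the highest in controls, and 22.6, 25.7 and 30.2 CPM in NASH, with overlap. Of all animals, 2 and 41 were highest, as they were for *PLIN2*. With a log2 fold change of 0.19 and SE 0.08, *DGAT1* missed the threshold (edgeR adjusted p = 0.0742). It was past the threshold without animal 9 (0.22, adjusted p = 0.0417 from edgeR), with upper-quartile factors (0.26, adjusted p = 0.0213), with every row of at least 1 count (0.27, adjusted p = 0.04) and with library size alone (0.66, adjusted p = 6.07e-05).

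The ratio of *DGAT2* to *DGAT1* counts ran from 18.7 to 28.1 among controls and from 5.22 to 11.4 in NASH. On the log2 scale it went from 4.48 ± 0.2 to 3.08 ± 0.41 (SD, n = 6 each), a difference of −1.39 (exact permutation p = 0.00216, 0.00432 adjusted over the 6 ratios). *DGAT2* and *DGAT1* therefore changed unequally whatever the scaling. The ratio was lowest in animal 65 and highest in control 45, the animals at the extremes of *DGAT2* itself.

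*CIDEC* and *CIDEB* encode CIDE proteins. CIDEC (FSP27) enlarges droplets in adipocytes and fatty livers, whereas CIDEB is the form of healthy hepatocytes and also takes part in loading VLDL with lipid. *CIDEC* was scarce, with 20 to 47 counts in a control and 35 to 48 in an animal with NASH. Its level was 1.35 CPM at the lowest, 1.72 at the median and 2.19 at the highest in controls, and 1.17, 1.26 and 1.5 CPM in NASH. Only control 56 (1.35 CPM) and control 10 (1.49 CPM) were within the range of NASH, whose highest animal was 20. *CIDEC* was lower by this test, at −0.44 with SE 0.16 on the log2 scale (edgeR adjusted p = 0.0327). The CV of 9.53% between animals with NASH was smaller than the 15.6% that counting error alone gives at this depth, so animals of that group could not be ranked for *CIDEC*.

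The level of *CIDEB* was 161 CPM at the lowest, 177 at the median and 199 at the highest in controls, and 114, 140 and 186 CPM in NASH. Of the animals with NASH, 65 and 41 (186 and 163 CPM) were within the range of controls and animal 20 was lowest. For *CIDEB* the log2 fold change was −0.29 with SE 0.10 (edgeR adjusted p = 0.0334). Neither CIDE call was firm. Without control 31 or 45 or without animal 9, 11, 41 or 65, *CIDEC* was no longer past the threshold (log2 fold change from −0.45 to −0.36, adjusted p from 0.0509 to 0.0781 from edgeR), and *CIDEB* was not without control 31, 32 or 56 or without animal 2, 9, 11 or 20 (from −0.29 to −0.23, adjusted p from 0.0517 to 0.0701). With library size alone the values were 0.03 for *CIDEC* (adjusted p = 0.879) and 0.18 for *CIDEB* (adjusted p = 0.116 from edgeR).

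The log2 ratio of *CIDEC* to *CIDEB* was −6.66 ± 0.31 in controls and −6.79 ± 0.35 in NASH (SD, n = 6 each), a difference of −0.14 (exact permutation p = 0.494) that ran from −0.25 (without animal 20) to −0.05 (without animal 65) as each animal was left out. A change in the balance of these CIDE transcripts was not detectable at the depth of *CIDEC*.

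**Figure D3:**
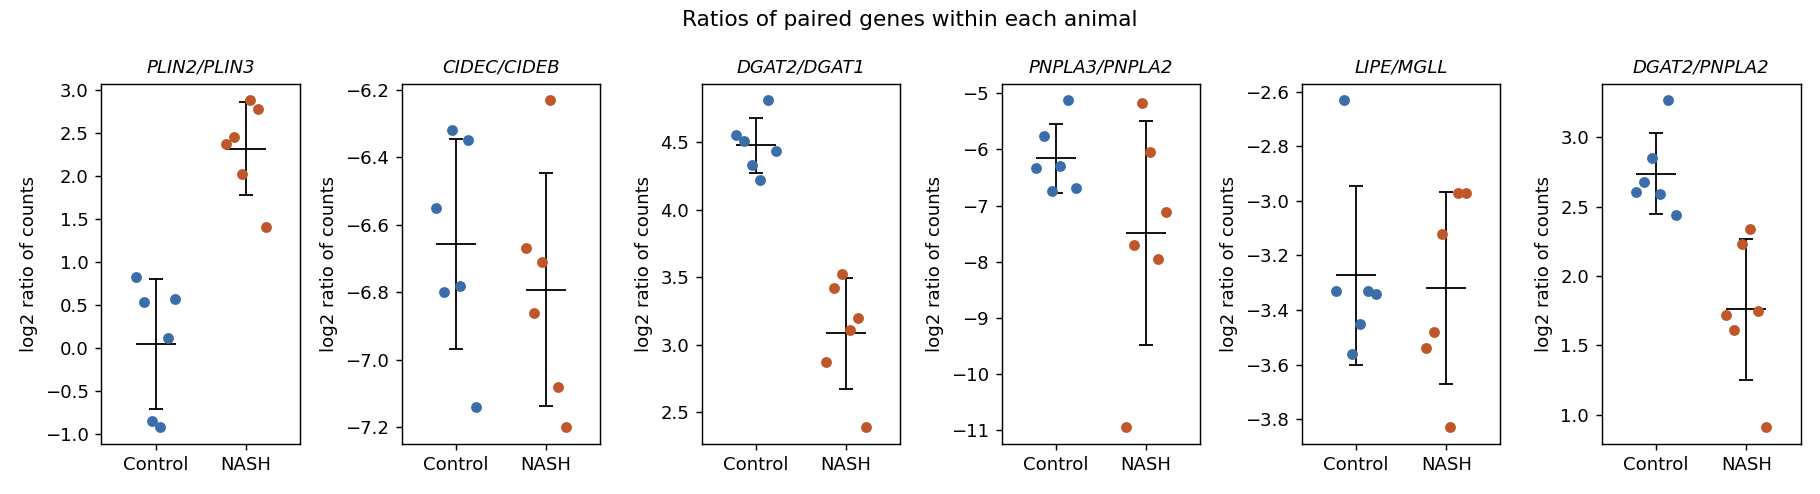
Log2 ratio of the counts of paired genes in each animal, controls in blue and NASH in orange, with the mean and SD as bars. *PLIN2/PLIN3*, *DGAT2/DGAT1* and *DGAT2/PNPLA2* separate the groups, and the other 3 ratios overlap. The vertical axes do not start at 0.

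The lipases act in sequence, and of their transcripts those of *MGLL* and *LIPE* were called lower. *PNPLA2*, the gene of the lipase that opens triglyceride breakdown, was at 67.2 CPM at the lowest, 77.1 at the median and 83.3 at the highest in controls, and at 43.1, 70 and 79.6 CPM in NASH. The groups overlapped broadly, although animals 20 and 11 (43.1 and 56.4 CPM) were below all controls. *PNPLA2* had a log2 fold change of −0.20 with SE 0.13 (edgeR adjusted p = 0.213), without animal 20 it was −0.11 (adjusted p = 0.371), and with library size alone it was 0.27 (adjusted p = 0.0725 from edgeR).

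*MGLL*, which encodes the monoacylglycerol lipase of the final step, had the smallest standard error of the 4 genes whose groups were apart. It was at 68 CPM at the lowest, 82 at the median and 90.3 at the highest in controls, and at 34.7, 39.7 and 46.3 CPM in NASH. Control 10, the lowest of its group, was still above animal 9, the highest with NASH. The mean fell from 80.9 ± 7.33 to 40.5 ± 4.59 CPM (SD, n = 6 each), or by −1.0 on the log2 scale (SE 0.09, edgeR adjusted p = 1.66e-06). Leaving out each animal in turn gave values from −1.04 to −0.96, and with library size alone the value was −0.53 (adjusted p = 0.000169 from edgeR).

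*LIPE*, a lipase gene best known from fat tissue and steroid-forming glands, was at 7.44 CPM at the lowest, 7.94 at the median and 11 at the highest in controls. In NASH it was at 2.40, 4.20 and 5.74 CPM. The groups did not overlap, with control 10 highest of all and animal 20 lowest. The mean fell from 8.37 ± 1.32 to 4.15 ± 1.14 CPM (SD, n = 6 each), and the log2 fold change was −1.01 with SE 0.18 (edgeR adjusted p = 0.000448). Its counts, 77 to 214 in an animal, gave a counting CV of 7.86% in controls and 8.63% in NASH, against 15.8% and 27.5% found between animals. With library size alone the log2 fold change was −0.54 (adjusted p = 0.0113 from edgeR).

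A change of *LIPE* relative to *MGLL* was not found. Their log2 ratio was −3.27 ± 0.33 in controls and −3.32 ± 0.36 in NASH (SD, n = 6 each), a difference of −0.05 (exact permutation p = 0.807), and a p-value of this size does not show that the ratios were equal. The difference was 0.08 without control 10 and 0.06 without animal 20.

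*PNPLA3*, a relative of *PNPLA2* whose protein sits on droplets and is known for its link to fatty liver in people, was near the lower limit of these data. It had 11 to 46 counts in a control and 0 to 47 in an animal with NASH. The levels were 0.605, 0.923 and 1.89 CPM (lowest, median and highest) in controls. In NASH they were 0, 0.420 and 1.54 CPM. Animal 2 had no count, which allows up to 0.102 CPM by the limit of 3 counts (counting error only), while animal 11 had the second-highest level of all 12. Over all animals the log2 fold change was −0.99 with SE 0.61 (edgeR adjusted p = 0.187), and it was −0.74 without animal 2 (adjusted p = 0.202) and −1.63 without animal 11 (adjusted p = 0.0292 from edgeR). The CV between animals, 44.3% in controls and 96.9% in NASH, exceeded the counting CV of 21.5% and 24%. Its difference was −0.14 on the scale of the deposited rlog values, which shrink low counts towards the mean. The log2 ratio of *PNPLA3* to *PNPLA2* was −6.16 ± 0.62 in controls and −7.49 ± 1.99 in NASH (SD, n = 6 each), with overlap (exact permutation p = 0.132), where animal 2, with no *PNPLA3* count, was at −10.95 only through the count of 1 added to each gene. The difference of −1.33 became −0.64 without animal 2 (exact permutation p = 0.271) and −1.80 without animal 11 (exact permutation p = 0.0216).

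As a comparison of triglyceride completion with the start of its breakdown, *DGAT2* was set against *PNPLA2*. The ratio of their counts ran from 5.43 to 9.65 among controls and from 1.88 to 5.07 in NASH. On the log2 scale it went from 2.74 ± 0.29 to 1.76 ± 0.51 (SD, n = 6 each), a difference of −0.98 (exact permutation p = 0.00216, 0.00432 adjusted over the 6 ratios). Animals 20 and 11, with 5.07 and 4.70, came nearest to the controls, and these were the animals with the least *PNPLA2*.

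Whether the 10 genes varied together among animals of the same group was examined with the rlog values, over 45 pairs of genes in each group. In controls 5 pairs had an absolute Pearson's r of at least 0.8 (2 positive and 3 negative), and in NASH 3 pairs did (1 positive and 2 negative). No pair had an adjusted p-value under 0.05 over the 90 correlations (exact permutation over 720 pairings), and 2 pairs in each group had an unadjusted p-value under 0.05. With 720 pairings no exact p-value can be below 0.00139. In NASH *CIDEC* and *PNPLA2* had r = −0.98 (exact permutation p = 0.00139, adjusted p = 0.125) and rho = −1 (exact permutation p = 0.00278, adjusted p = 0.125), and r was −0.91 without the 2 animals farthest from the median of *CIDEC*. In controls the same pair had r = −0.81 (exact permutation p = 0.0583, adjusted p = 0.514). The low counts of *CIDEC* in NASH, whose spread did not exceed counting error, stand beside this value. *CIDEB* and *LIPE* had r = 0.97 in NASH (exact permutation p = 0.00556, adjusted p = 0.25) and rho = 1 (exact permutation p = 0.00278, adjusted p = 0.125), and r was 0.90 without the 2 animals farthest from the median of *CIDEB*. Animal 20 was lowest and animal 65 highest in NASH for both genes.

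The other genes of the pathway came from a list of 39 symbols, of which 30 were found, *LDAF1* under its older symbol *TMEM159*. Of the 30, 7 were higher, 16 lower and 7 did not pass the threshold, with a median log2 fold change of −0.29, where 27.9% of all genes were higher and 26.0% lower. On library size alone, 12 were higher and 7 lower, against 63.9% and 7.66% of all genes. The CPM of the groups did not overlap in 4 on the high side and 10 on the low side, against 18.4% and 15.3% of all genes. The 16 lower include *FITM1* and *BSCL2*, and the 10 include *FITM1*, whose count rows each carry a further symbol. The steps before and around the DGAT reaction did not move as a block.

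Among the earlier enzymes of triglyceride synthesis, 4 of 8 were higher and 4 lower, against 27.9% and 26.0% of all genes. For the acylation of glycerol-3-phosphate, *GPAM*, the mitochondrial isoform of liver, was at 195 to 418 CPM in controls and at 38.9 to 159 CPM in NASH, without overlap (log2 fold change −1.64, SE 0.29, adjusted p = 0.00039 from edgeR). *GPAT3*, an isoform of the endoplasmic reticulum and typical of adipocytes, was at 0.329 to 1.41 CPM in controls and at 1.90 to 11.1 CPM in NASH (log2 fold change 3.0, SE 0.44, adjusted p = 9.17e-05 from edgeR). It had the highest value of the list, from as few as 8 counts in a control. At the next step *AGPAT2* fell from 69.9 ± 14 to 36.5 ± 6.05 CPM (SD, n = 6 each, log2 fold change −0.94, adjusted p = 0.00014 from edgeR), while *AGPAT1* had a small rise of 0.21 (adjusted p = 0.0235 from edgeR). Of the lipins, which make diacylglycerol, *LPIN2* was lower (−0.90, adjusted p = 0.0131 from edgeR) and *LPIN1* and *LPIN3* were higher (0.25 and 0.67, adjusted p = 0.0278 and 0.043). The calls of *AGPAT1*, *LPIN1* and *LPIN3* were all lost without animal 9 (adjusted p = 0.0523, 0.0516 and 0.0594 from edgeR), without animal 41 (0.0563, 0.0569 and 0.0501) and at a threshold of 0.01, which left *GPAT3* as the only higher gene of these steps. Of the lower genes, *GPAM* and *AGPAT2* kept their calls in these settings and with library size alone. *LPIN2* was lost at 0.01 and with library size alone (−0.43, adjusted p = 0.156 from edgeR). *GPAT4*, a further isoform of the endoplasmic reticulum (−0.54, adjusted p = 0.0326 from edgeR), was lost at 0.01, with upper-quartile factors (−0.47, adjusted p = 0.0615), with library size alone (−0.07, adjusted p = 0.771), with every row of at least 1 count (−0.45, adjusted p = 0.0884) and without control 10, 32 or 56 or animal 2, 11, 20 or 65 (adjusted p from 0.0512 to 0.0751). *LPIN1* was also lost without control 31, 32 or 56 or animal 2 or 65 (adjusted p from 0.0562 to 0.0611 from edgeR), and *LPIN3* without control 5, 10, 31 or 45 or animal 2, 11 or 65 (from 0.0518 to 0.107).

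Of the other coat and fusion genes, *CIDEA*, the CIDE gene of brown fat and of fatty liver, fell from 27 ± 6.96 to 3.50 ± 1.76 CPM (SD, n = 6 each). Its levels were 19.4 to 36.4 CPM in controls and 1.90 to 6.25 CPM in NASH. Its log2 value of −2.95 (SE 0.31, edgeR adjusted p = 6.35e-06) was the lowest of all 40 genes found in the pathway, the 10 included. *PLIN5*, the perilipin that tethers droplets to mitochondria, was lower with overlap (−0.69, SE 0.21, adjusted p = 0.0132 from edgeR), at 38.9 to 86.6 CPM in controls and 29.6 to 50.6 CPM in NASH, and its value was −0.22 with library size alone (adjusted p = 0.354). So among the perilipin and CIDE genes measured, *PLIN2* alone was called higher, under TMM and under library size alone.

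In droplet formation, 1 of 5 genes was higher and 3 were lower, against 27.9% and 26.0% of all genes. The 3 include *FITM1* and *BSCL2*, whose count rows each carry a further symbol, given below. *TMEM159*, whose protein works with seipin where droplets bud, was at 1.02 ± 0.319 CPM in controls and 3.93 ± 0.714 CPM in NASH (SD, n = 6 each, log2 1.94, SE 0.22, edgeR adjusted p = 1.13e-05). *ACSL3*, an acyl-CoA synthetase of early droplets, fell from 19.4 ± 7.2 to 7.33 ± 1.57 CPM (SD, n = 6 each, log2 fold change −1.41, SE 0.23, adjusted p = 0.000247 from edgeR). The count row of *FITM1* (−1.18, adjusted p = 2.57e-05) also carries the symbol *DCAF11*, and that of *BSCL2*, the seipin gene (−0.23, adjusted p = 0.0224 from edgeR, but called higher with library size alone at 0.24, adjusted p = 0.00943), carries *LRRN4CL*, so neither value can be assigned to a single gene.

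The regulators of PNPLA2, namely its activator *ABHD5* and its inhibitors *G0S2* and *HILPDA*, did not pass the threshold (log2 fold changes of 0.08, −0.16 and 0.23, adjusted p from 0.168 to 0.59 from edgeR). With library size alone *HILPDA* and *ABHD5* did (0.70 and 0.56, adjusted p = 0.000288 and 0.000768) and *G0S2* was at 0.32. Of the 5 other hydrolases found, 2 were higher (*LIPA* and *DDHD2*), 2 lower (*ABHD6* and *LDAH*) and *CES1* was not called (−0.12). The same test called 27.9% of all genes higher and 26.0% lower. *LIPA*, the acid lipase that breaks down triglyceride and cholesteryl ester inside lysosomes, rose from 104 ± 26.3 to 280 ± 39.5 CPM (SD, n = 6 each). It was at 56.9 to 130 CPM in controls and at 234 to 330 CPM in NASH (log2 fold change 1.43, SE 0.17, adjusted p = 2.1e-05 from edgeR). *LIPA* is abundant in macrophages, whose marker levels are given above. *DDHD2* was also higher without overlap (0.53, adjusted p = 0.00503 from edgeR), and *ABHD6*, a further monoacylglycerol hydrolase, was lower (−0.65, adjusted p = 0.00218), though not with library size alone (−0.18, adjusted p = 0.297). *LDAH*, a hydrolase of the droplet surface, was lower by the test (−0.25, adjusted p = 0.0142 from edgeR) but called higher with library size alone (0.23, adjusted p = 0.0111).

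**Figure D4:**
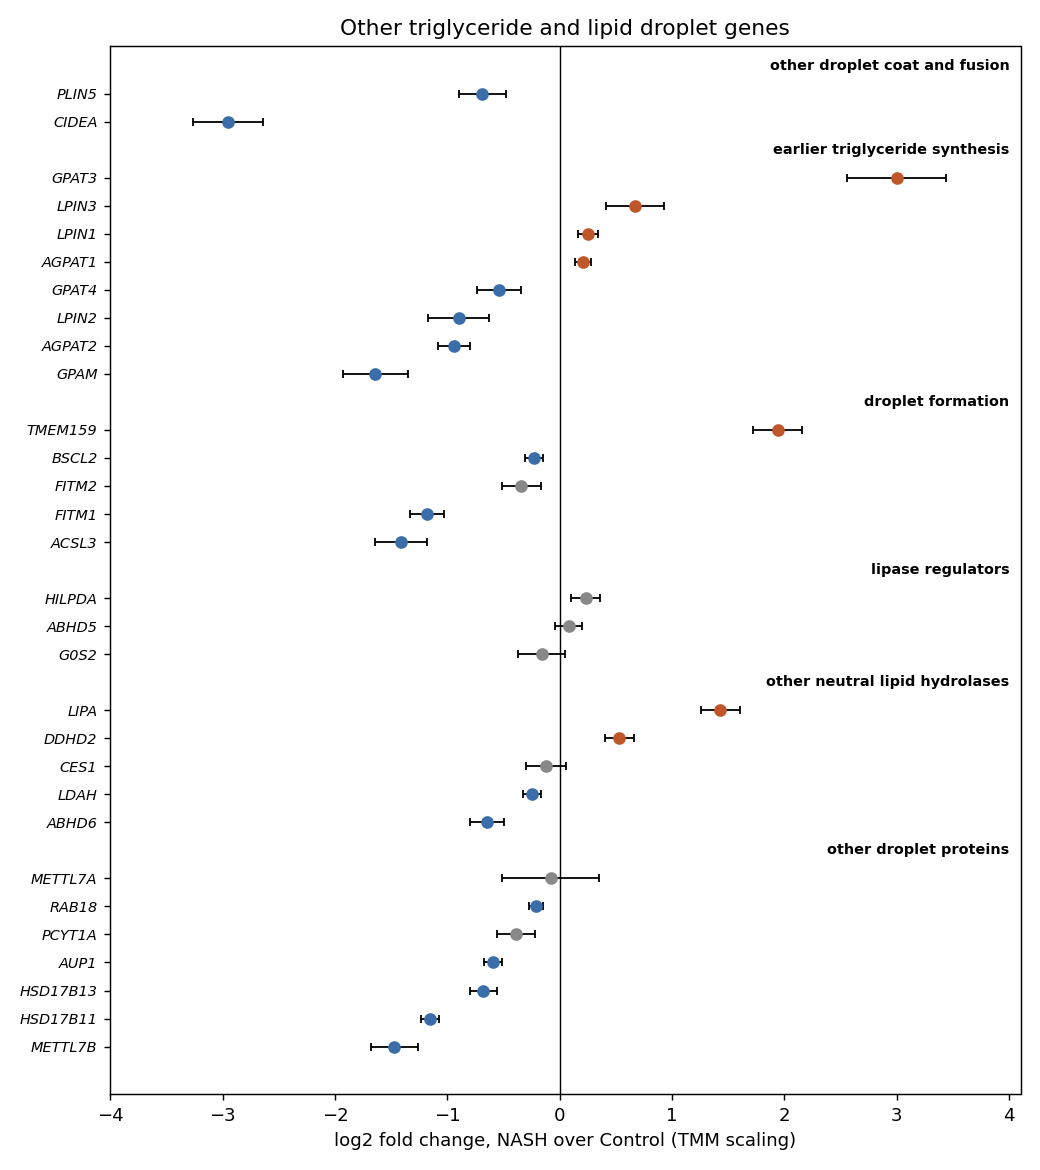
Log2 fold change, NASH over controls, with its standard error, of the 30 other triglyceride and droplet genes found, grouped by role (orange for higher, blue for lower and grey for not called). *GPAT3*, *TMEM159* and *LIPA* have the highest values (3.0, 1.94 and 1.43) and *CIDEA* and *GPAM* the lowest (−2.95 and −1.64). The count rows of *FITM1* and *BSCL2* each carry a further symbol.

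Of the other droplet proteins, 5 of 7 were lower and none was higher, where 26.0% and 27.9% of all genes were. *HSD17B13*, *HSD17B11*, *METTL7B* and *AUP1* were lower without overlap, *RAB18* was lower with overlap (−0.21, adjusted p = 0.0149 from edgeR), and *PCYT1A* was without overlap on the low side but not past the threshold (−0.39, adjusted p = 0.0696), though it was without animal 11 (−0.25, adjusted p = 0.00444). *HSD17B13*, a hepatocyte enzyme of the droplet surface, fell from 883 ± 120 to 550 ± 80.2 CPM (SD, n = 6 each, log2 fold change −0.68, SE 0.12, adjusted p = 0.000419 from edgeR). Its relative *HSD17B11* fell from 509 ± 41.9 to 229 ± 19.6 CPM (SD, n = 6 each, log2 fold change −1.15, SE 0.08, adjusted p = 2.46e-07 from edgeR). *METTL7B* was lower by 1.47 on the log2 scale (log2 fold change −1.47, adjusted p = 7.34e-05 from edgeR) and *AUP1* had −0.59 (adjusted p = 4.18e-05). With library size alone *HSD17B13* and *AUP1* were at −0.21 and −0.12 and not past the threshold (adjusted p = 0.0983 and 0.195 from edgeR), and *RAB18* was called higher (0.27, adjusted p = 0.00162). *METTL7A* ran from 56.7 to 279 CPM among controls and from 134 to 179 CPM in NASH, and its value of −0.08 did not pass the threshold.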

How the data were processed

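Liver mRNA of 12 guinea pigs was sequenced from a single end. The authors trimmed reads with Trimmomatic 0.38.0, mapped them with HISAT2 2.1.0 to Cavpor3.0, ignored multimapped reads and quantified loci with StringTie 1.3.6. They deposited raw counts for 39061 loci and log2 values from the rlog transformation of DESeq2 for 11896 symbols. Symbols were paired with count rows by repeating that transformation, which recovered the deposited values to within 8.35e-07 (11031 rows). Each of the 10 genes had a row of its own. No row was a total or unassigned class.

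Counts were tested with edgeR 4.0.16 in R 4.3.3 (TMM, whole-table library sizes, robust glmQLFit, glmQLFTest). The standard error is the log2 fold change over the square root of F. Ratios used counts plus 1. DESeq2 1.42.0 and limma 3.58.1 (voom, and trend on the rlog values) were alternatives. Procedures were tested on simulated data. Figures used Python 3.11.15 and matplotlib 3.10.9.

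The genes and lists were chosen with earlier results of these data known. Named genes are the 10, and of each list of other pathway genes those past the threshold without overlap (at most 4) with the highest and lowest. Of each cell type marker list they are the highest and lowest gene. *AGPAT1*, *LPIN1*, *LPIN2*, *LPIN3*, *GPAT4*, *BSCL2*, *ABHD5*, *LDAH*, *RAB18*, *FITM2*, *CES1*, *PCYT1A*, *CD68*, *GPNMB* and *HBA1* were added after their values were seen. Overlap of loci with neighbouring genes was not examined. Counts of any pair of animals of a group differed by at least 43.8 times the counting variance, a check for duplicated libraries only. Replicates are the separate animals of the labels.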

Additional observations from a re-analysis of the deposited data

Results flagged for a closer look

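In 8 of the 90 sets of 6 animals examined for the genes and ratios of the pathway, a single animal lay far from the others of its group by Dixon's test at the 95% level, where chance alone gives about 5% of sets. *DGAT2* was at 648 CPM in control 45, against 452 to 504 CPM in the other controls. In NASH it was at 137 CPM in animal 65, against 219 to 265 CPM in the others. *LIPE* was at 11 CPM in control 10, against 7.44 to 8.27 CPM, and with it the log2 ratio of *LIPE* to *MGLL* was −2.63 in that control, against −3.56 to −3.33. *G0S2* was at 17.2 CPM in animal 41, against 8.45 to 11.4 CPM in the other animals with NASH, and its log2 fold change of −0.16 was −0.32 without that animal and −0.02 without control 45. *DDHD2* was at 55.1 CPM in animal 2, against 43.1 to 46.8 CPM. *AGPAT1* was at 21.3 CPM in control 56, against 24.4 to 26.1 CPM, and *PCYT1A*, of phosphatidylcholine synthesis, at 49.8 CPM in animal 11, against 107 to 117 CPM. When animals were omitted one by one, *DGAT2* stayed between −1.24 and −1.09 and *LIPE* between −1.13 and −0.89 on the log2 scale, past the threshold each time.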

How the results depend on the processing

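*PLIN2* kept its direction and call under all 23 alternatives, and among the 10 *DGAT2*, *LIPE* and *MGLL* did under all but the test for a change beyond 1 on the log2 scale. In the other list *CIDEA*, *GPAT3*, *TMEM159* and *LIPA* kept theirs under all 23. Of the 10 genes, 1 was higher and 5 lower. This became 2 and 3 with upper-quartile factors, with library size alone and with every row of at least 1 count, 0 lower in the test beyond 1, and 3 lower at a threshold of 0.01. Leaving out each animal gave 1 to 2 higher and 3 to 6 lower (2 higher and 3 lower without animal 9, and 3 lower without control 31). Of the other list, 7 were higher and 16 lower, and these were 12 and 7 with library size alone, 3 and 1 in the test beyond 1, and 4 and 10 at 0.01. Leaving out each animal gave 4 to 7 higher (4 without animal 9 or 41) and 15 to 17 lower. Under library size alone (overall shift 0.48) the sign changed, among the genes examined, for *PLIN3* (0.07), *CIDEC* (0.03), *CIDEB* (0.18), *PNPLA2* (0.27), *G0S2* (0.32), *METTL7A* (0.40), *BSCL2* (0.24), *FITM2* (0.14), *CES1* (0.35), *LDAH* (0.23), *RAB18* (0.27), *PCYT1A* (0.09) and the hepatocyte marker *ASGR1* (0.29), and *BSCL2*, *LDAH*, *RAB18* and *ASGR1* went from lower to higher calls. *METTL7A* was also at 0.29 with limma-voom, 0.16 on rlog values and, leaving out each animal, at −0.25 to 0.14 (0.09 to 0.14 without control 10, 32 or 45), and *ABHD5* at 0 to 0.15 (0 without control 56). On rlog values, which shrink low counts, the differences in log2 ratio were 0.10 for *CIDEC*/*CIDEB*, 0 for *PNPLA3*/*PNPLA2* and 0.17 for *LIPE*/*MGLL*. Leaving out each animal gave −1.80 to −0.64 for *PNPLA3*/*PNPLA2* and −0.12 to 0.08 for *LIPE*/*MGLL*. No control pair reached an absolute r of 0.9, against 5 at 0.8. Apart from what the construction of an alternative shows, the cause was not tested. No paired analysis was possible because the groups share no animal number. Depth limits *CIDEC*, whose spread in NASH was within counting error.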
